A study of Mus musculus with 12 samples.

Results

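The caspase and Bcl2 family genes *Casp8*, *Casp9*, *Bcl2*, *Bcl2l1*, *Mcl1*, *Bcl2l11*, *Bax*, *Bak1*, and *Bid* were examined in 4 sorted populations of mouse fetal liver (FL). These 9 genes were taken by name from the 38127 genes of the count files. At least 1 count was found for 8 of them, and *Bak1* was listed at 0 in every library.

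The study sorted Ter119-CD45- cells from C57BL/6 FL digested with liberase and sequenced total RNA in 3 libraries per population, 12 in all. P2 cells were CD54-CD31-Kit+CD24+ at E14.5. CD54+CD31- cells were taken at E14.5 and again at E18.5, and CD54+CD31+ cells at E14.5, called CD31+ cells here. The sorts removed Ter119+ and CD45+ cells in every population, so mature red cells and most leukocytes were gated out of all of them. No mutation or treatment was applied to any group. The study names its epithelial sort by CD324, which marks hepatoblasts, while the labels name CD54. Levels are given in CPM, counts scaled to a common library size. The libraries held 40714017 to 64368883 counts in genes. *Cdk8*, *Zc3h7a*, and *Il1rapl1* took 10.8 to 23.1% of the counts of a library.

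Apoptosis runs by 2 routes that meet at the executioner caspases. In the death receptor route, caspase 8 is activated at the receptor and can cut Bid, whose fragment carries the signal to mitochondria. In the mitochondrial route, Bax and Bak open the outer membrane, cytochrome c is released, and caspase 9 is activated on the Apaf1 scaffold. Bcl2, Bcl-xL (*Bcl2l1*), and Mcl1 hold Bax and Bak in check, and BH3-only proteins such as Bim (*Bcl2l11*) and Bid counter them. In erythroid progenitors, erythropoietin signaling sustains survival, and Bcl-xL is known to protect maturing erythroblasts.

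The sorted populations were compared with marker genes of 8 cell types. In P2 cells the 3 libraries had 665 to 788 CPM over 6 erythroid markers, against 115 to 312 in the other E14.5 libraries. Of these markers *Alas2* was listed at 0 in all libraries, which is not read as lack of *Alas2* RNA. *Klf1*, *Gata1*, and *Epor* were highest in P2 cells. The globin genes went the other way, with mean *Hbb-bs* at 41.6 CPM in P2 cells, 81.5 in CD54+CD31- cells, and 86.6 in CD31+ cells, and mean *Hba-a1* at 32.6, 51.7, and 41.3. The 6 hepatoblast markers summed to 65658 to 75503 CPM in CD54+CD31- cells at E14.5 and to 639 to 853 in the other E14.5 libraries. The 6 endothelial markers summed to 8614 to 9139 CPM in CD31+ cells. Megakaryocyte markers were also highest there, at 260 to 465 CPM over 4 genes, against 28.4 to 74.0 in P2 cells and 35.3 to 44.6 in CD54+CD31- cells at E14.5, and their part in the levels of *Bcl2*, *Casp8*, and *Bcl2l1* in CD31+ cells was not tested. In P2 cells the 6 endothelial markers summed to 53.0 to 351 CPM, with replicate 2 the highest.

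The E18.5 CD54+CD31- libraries are labelled as FL but also held RNA of genes typical of lung. Genes of lung epithelium (*Sftpc*, *Sftpb*, *Nkx2-1*, and *Napsa*) summed to 6643 to 15325 CPM there and to at most 2.68 in all E14.5 libraries. Mesenchymal markers summed to 3118 to 3454 CPM, against 93.7 to 178 in CD54+CD31- cells at E14.5, and mesothelial markers to 272 to 467 against 1.67 to 3.81. Hepatoblast markers summed to 5257 CPM in replicate 1 at E18.5 and to 34177 and 44004 in replicates 2 and 3. Replicate 1 was also the library with the most lung epithelial RNA. The part of these markers in the results at E18.5 was not tested. In bulk libraries, fewer cells of a type and less RNA per cell cannot be told apart.

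*Bcl2* (chr1:106538178-106714274, minus strand of GRCm38) and *Casp8* (chr1:58795374-58847503, plus strand) had their highest levels in CD31+ cells, and *Bid* (chr6:120891930-120916853, minus strand) had its highest level in P2 cells. The 250 bases before the RefSeq start of each gene on GRCm38.p6 are shown because *Bcl2* and *Casp8* were high together in CD31+ cells while *Bid* was low there among the E14.5 populations. Capitals mark the letters of 4 motifs searched on both strands, with overlapping matches merged. GATA factor sites were searched as AGATAA and STAT factor sites as TTCNNNGAA. CACCC boxes were searched as CCNCNCCC and ETS factor sites as CCGGAAG. Among 32851 windows of the same length, 9.99% held the GATA letters, 7.02% the STAT letters, 45.9% the CACCC letters, and 6.91% the ETS letters.
Bcl2 (chr1:106714291-106714540, minus strand): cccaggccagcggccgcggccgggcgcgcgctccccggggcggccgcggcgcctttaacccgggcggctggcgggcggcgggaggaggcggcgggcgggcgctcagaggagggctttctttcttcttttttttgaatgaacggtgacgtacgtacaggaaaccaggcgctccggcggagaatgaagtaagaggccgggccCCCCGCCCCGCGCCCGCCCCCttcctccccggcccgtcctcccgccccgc
Casp8 (chr1:58802252-58802501, plus strand): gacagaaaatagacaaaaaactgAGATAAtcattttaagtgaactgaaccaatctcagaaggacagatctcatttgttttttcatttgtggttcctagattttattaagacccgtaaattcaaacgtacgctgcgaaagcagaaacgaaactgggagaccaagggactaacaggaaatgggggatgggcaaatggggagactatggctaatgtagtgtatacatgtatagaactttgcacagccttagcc
Bid (chr6:120916825-120917074, minus strand): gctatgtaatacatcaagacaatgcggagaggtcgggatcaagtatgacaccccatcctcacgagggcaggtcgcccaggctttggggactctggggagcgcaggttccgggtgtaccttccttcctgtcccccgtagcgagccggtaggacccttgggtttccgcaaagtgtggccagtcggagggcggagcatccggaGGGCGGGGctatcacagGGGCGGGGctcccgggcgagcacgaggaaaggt
The *Bcl2* window, 74.8% G and C, held 3 matches to the CACCC letters. The *Casp8* window, 39.6% G and C, held 1 match to the GATA letters. The *Bid* window, 63.6% G and C, held 2 matches to the CACCC letters, and its last 29 bases lay in an annotated exon. A match is a description of letters and not evidence of binding.

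*Bcl2*, the founding protective member, varied most among the members. In CD31+ cells its levels were 90.4, 63.8, and 62.6 CPM (72.3 ± 15.7, SD, n = 3). In P2 cells they were 5.88, 5.87, and 4.76 CPM (5.50 ± 0.646, n = 3). In CD54+CD31- cells at E14.5 they were 1.33, 1.79, and 2.86 CPM (2.00 ± 0.786, n = 3), from 47, 57, and 116 counts. All libraries of CD31+ cells lay above all others, and the P2 and E14.5 CD54+CD31- libraries did not overlap. In P2 cells replicate 2, which had the most endothelial RNA, had a *Bcl2* level close to that of replicate 1, which had the least. *Casp8* and *Bcl2l1*, which were also higher in CD31+ than in P2 cells, had their highest P2 levels in replicate 2. Without that replicate their log2 fold changes against CD54+CD31- cells were 0.57 and -1.05, and both stayed called. The part of endothelial RNA in the P2 levels of *Bcl2*, *Casp8*, and *Bcl2l1* was not tested. At E18.5 CD54+CD31- cells had 8.54, 10.7, and 12.01 CPM (10.41 ± 1.75, n = 3), all above P2 cells and below CD31+ cells. The highest population mean was 36.2 times the lowest.

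*Bcl2l1*, which encodes the protective Bcl-xL (chr2:152780668-152831728, minus strand), had the levels 17.7, 21.5, and 18.6 CPM in P2 cells (19.3 ± 1.98, n = 3). The CD54+CD31- cells at E14.5 had 35.7, 37.7, and 38.3 CPM (37.3 ± 1.34, n = 3), and CD31+ cells had 64.6, 63.5, and 65.8 CPM (64.6 ± 1.17, n = 3). The E18.5 libraries had 119, 95.9, and 95.4 CPM (103 ± 13.5, n = 3). No 2 populations overlapped in this order, with P2 cells the lowest and the E18.5 libraries the highest.

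*Mcl1*, a short-lived protective member (chr3:95658788-95663176, plus strand), was less variable. Its levels were 122, 116, and 108 CPM in P2 cells (115 ± 6.82, n = 3) and 129, 159, and 147 CPM in CD54+CD31- cells at E14.5 (145 ± 15.3, n = 3). CD31+ cells had 156, 189, and 172 CPM (172 ± 16.3, n = 3), and the E18.5 libraries had 214, 167, and 161 CPM (180 ± 29.2, n = 3). P2 cells lay below the other populations without overlap, and neighbors among the other populations overlapped.

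Both caspases among the members are initiators. *Casp8*, of the death receptor route, had 129, 133, and 111 CPM in CD31+ cells (125 ± 11.6, n = 3). P2 cells had 35.2, 41.5, and 32.3 CPM (36.4 ± 4.71, n = 3), the E18.5 libraries had 26.3, 27.7, and 28.9 CPM (27.6 ± 1.30, n = 3), and CD54+CD31- cells at E14.5 had 17.9, 24.4, and 25.4 CPM (22.5 ± 4.07, n = 3). No neighbors in this order overlapped. *Casp9*, of the mitochondrial route (chr4:141793612-141815976, plus strand), had population means of 13.9 ± 1.35 CPM in CD31+ cells, 14.6 ± 0.732 in P2 cells, 15.9 ± 0.863 in CD54+CD31- cells at E14.5, and 17.3 ± 1.01 at E18.5 (SD, n = 3 each). Each neighbor in the order of *Casp9* overlapped the next, and the highest mean was 1.25 times the lowest.

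*Bid*, the BH3-only link between both routes, was highest in P2 cells, at 45.9, 46.8, and 45.8 CPM (46.2 ± 0.527, n = 3). CD54+CD31- cells at E14.5 had 27.4, 32.1, and 29.5 CPM (29.7 ± 2.35, n = 3), and CD31+ cells had 15.6, 16.3, and 15.97 CPM (15.9 ± 0.350, n = 3). The E18.5 libraries had 6.98, 10.02, and 11.6 CPM (9.53 ± 2.34, n = 3). None of the 4 populations overlapped. Of the 3550 exon bases of *Bid*, 628 are shared with *Bcl2l13* on the opposite strand, and whether the counting used strand is not given in the sources used here. *Bcl2* shares 558 of its 9157 exon bases with an opposite-strand gene, and *Bax* shares 192 of 1576 with a gene on its own strand. Of 35 protein-coding genes with all exon bases shared with opposite-strand exons, 91.4% had 0 counts in the 12 libraries. Among 16588 with no shared exon base, 16.6% had 0 counts. The part of shared bases in the levels of *Bid*, *Bcl2*, and *Bax* was not tested.

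*Bcl2l11*, which encodes the BH3-only protein Bim (chr2:128126038-128162547, plus strand), had 44.0, 41.9, and 42.6 CPM in CD31+ cells (42.8 ± 1.05, n = 3) and 40.1, 38.6, and 39.6 CPM at E18.5 (39.4 ± 0.764, n = 3). P2 cells had 28.0, 28.0, and 28.9 CPM (28.3 ± 0.515, n = 3), and CD54+CD31- cells at E14.5 had 22.8, 21.6, and 26.1 CPM (23.5 ± 2.30, n = 3). The populations did not overlap, and the highest mean was 1.82 times the lowest.

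Of the pore-forming members, *Bax* (chr7:45461697-45466898, minus strand) had 11.1, 10.8, and 8.97 CPM in P2 cells (10.3 ± 1.17, n = 3) and 10.5, 9.68, and 8.21 CPM in CD31+ cells (9.45 ± 1.15, n = 3). CD54+CD31- cells had 5.69, 5.79, and 6.07 CPM at E14.5 (5.85 ± 0.198, n = 3) and 2.60, 2.25, and 2.48 CPM at E18.5 (2.44 ± 0.177, n = 3). P2 and CD31+ cells overlapped, and both lay above the CD54+CD31- libraries of either age. *Bak1* (chr17:27019810-27029009, minus strand), the partner of *Bax* at the outer membrane, was listed at 0 in all 12 libraries, which allows up to 0.0944 CPM (3 counts) in the library with the smallest scaled size by counting error alone. Of its 2407 exon bases, 437 are shared with the counted *Ggnbp1* on the opposite strand. With a further *Ggnbp1* ID that is not in the count files, 614 are shared and 1793 are shared with no gene. *Bid*, which also shares opposite-strand bases, had 14662 counts over the libraries. The part of shared bases in the 0 of *Bak1* was not tested, and the 0 is not read as lack of *Bak1* RNA.

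**Figure D1:**
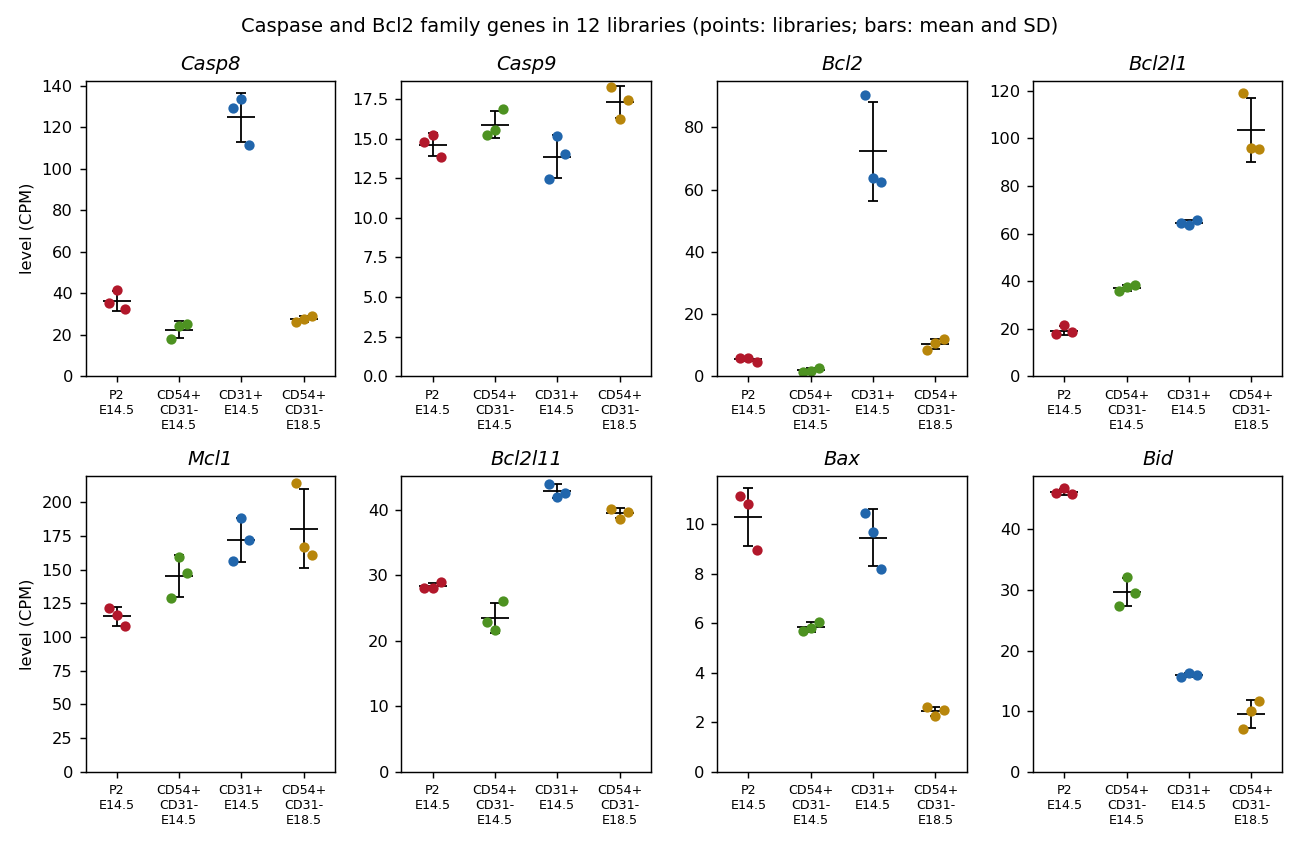
Level in CPM (y axis, from 0) of the 8 members with counts in the 4 populations (x axis). Points are single libraries, and bars are the mean and SD of 3. *Bcl2* and *Casp8* stand highest in CD31+ cells, *Bid* in P2 cells, and *Casp9* overlaps between neighboring populations.

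The question put to the P2 cells was how they differ from the epithelial CD54+CD31- cells of the same age. *Casp8*, *Bcl2*, *Bax*, *Bid*, and *Bcl2l11* were higher in P2 cells and *Bcl2l1* and *Mcl1* were lower, so 7 of the 8 members tested passed an adjusted p of 0.05 in edgeR's quasi-likelihood test. Of all 15461 genes tested, 70.0% passed, 33.8% higher and 36.1% lower. The libraries of both populations did not overlap for 7 of 8 members and for 75.3% of all genes. The members' share is read against that background, and their median log2 fold change was 0.43, against -0.011 over all genes. *Bcl2* was higher by 1.43 on the log2 scale (SE 0.26, adjusted p = 0.000522), *Bax* by 0.80 (SE 0.14, adjusted p = 0.000570), *Casp8* by 0.67 (SE 0.14, adjusted p = 0.00183), and *Bid* by 0.62 (SE 0.08, adjusted p = 6.27e-05). Among protective members *Bcl2l1* moved the other way, with a log2 fold change of -0.97 (SE 0.09, adjusted p = 4.23e-06), and *Mcl1* had one of -0.35 (SE 0.10, adjusted p = 0.0111). *Bcl2l11* was higher by 0.25 (SE 0.09, adjusted p = 0.0268) with the scaling used here, but -0.013 with the authors' own library factors. That call was also lost without P2 replicate 1, 2, or 3 or CD54+CD31- replicate 1 or 2 (adjusted p from 0.0558 to 0.140), and that of *Mcl1* without P2 replicate 3 (adjusted p = 0.0554). The *Bcl2l11* call was lost too with no low count filter (adjusted p = 0.0799) and with at least 10 counts in every library (adjusted p = 0.124). *Casp9* had a log2 fold change of -0.14 (SE 0.11, adjusted p = 0.278), which passed with the authors' factors at -0.40 (adjusted p = 0.00738). With the authors' factors the genes called split 38.2% higher, against 48.3% here, and the median of all genes moved by -0.26.

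Compared with CD31+ cells, P2 cells had less *Bcl2*, *Casp8*, *Bcl2l1*, *Bcl2l11*, and *Mcl1* and more *Bid*. By the same test 6 of 8 members were called, 1 higher and 5 lower, where 73.7% of all genes were called, 34.3% higher and 39.4% lower. Libraries did not overlap for 6 of 8 members, against 77.1% of all genes. The members' median log2 fold change was -0.60, against -0.13 over all genes. *Bcl2* differed by -3.73 on the log2 scale (SE 0.24, adjusted p = 3.63e-07), *Casp8* by -1.79 (SE 0.15, adjusted p = 1.58e-06), and *Bcl2l1* by -1.76 (SE 0.09, adjusted p = 9.96e-08). *Bcl2l11* and *Mcl1* differed less, by -0.61 (SE 0.09, adjusted p = 0.000106) and -0.59 (SE 0.10, adjusted p = 0.000413). *Bid* was higher by 1.52 (SE 0.08, adjusted p = 1.32e-07). For *Casp9* and *Bax* the log2 fold changes were 0.06 (SE 0.11, adjusted p = 0.609) and 0.11 (SE 0.14, adjusted p = 0.482), and with the authors' factors they were -0.30 (adjusted p = 0.0265) and -0.26 (adjusted p = 0.140). With those factors 33.9% of the genes called were higher, against 46.6% here, and the median of all genes moved by -0.37.

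CD31+ cells had far more *Bcl2* and *Casp8* than CD54+CD31- cells of the same age. Here 6 of 8 members were called, 5 higher and 1 lower, where 65.6% of all genes were called, 31.7% higher and 34.0% lower. Libraries did not overlap for 7 of 8 members, against 69.5% of all genes. The members' median log2 fold change was 0.74, against -0.031 over all genes. *Bcl2* was higher by 5.16 (SE 0.27, adjusted p = 6.48e-08) and *Casp8* by 2.46 (SE 0.15, adjusted p = 2.07e-07). *Bcl2l11* was higher by 0.86 (SE 0.09, adjusted p = 1.12e-05), *Bcl2l1* by 0.79 (SE 0.09, adjusted p = 2.31e-05), and *Bax* by 0.68 (SE 0.14, adjusted p = 0.00181). *Bid* was the member that was lower, at -0.91 (SE 0.08, adjusted p = 4.76e-06). *Mcl1*, at 0.24 (SE 0.10, adjusted p = 0.0627), did not pass here. It passed with DESeq2's size factors, the authors' factors, DESeq2 itself, at least 10 counts in every library, or the 6 libraries compared alone, and without CD31+ replicate 1 (adjusted p from 0.00662 to 0.0385). *Casp9*, at -0.20 (SE 0.11, adjusted p = 0.125), passed without CD31+ replicate 2 (adjusted p = 0.0247). These comparisons at E14.5 share libraries with one another, so they are not independent.

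At E18.5, CD54+CD31- cells had more *Bcl2*, *Bcl2l1*, and *Bcl2l11* and less *Bid* and *Bax* than at E14.5. All 8 members tested were called, 6 higher and 2 lower, where 69.4% of 15863 genes were called, 35.9% higher and 33.5% lower. Libraries did not overlap for 7 of 8 members, against 77.8% of all genes. The members' median log2 fold change was 0.49, against 0.033 over all genes. *Bcl2* was higher by 2.56 (SE 0.29, adjusted p = 0.000299), *Bcl2l1* by 1.66 (SE 0.12, adjusted p = 5.58e-05), and *Bcl2l11* by 0.93 (SE 0.10, adjusted p = 0.000198). *Bid* had a log2 fold change of -1.46 (SE 0.18, adjusted p = 0.000488) and *Bax* one of -1.07 (SE 0.16, adjusted p = 0.000934). *Mcl1* was higher by 0.50 (SE 0.15, adjusted p = 0.0214), *Casp8* by 0.48 (SE 0.13, adjusted p = 0.0158), and *Casp9* by 0.31 (SE 0.10, adjusted p = 0.0311). These fold changes were fitted on the 6 CD54+CD31- libraries, scaled apart from the levels, which were scaled over 12 libraries. On the scale of the levels, mean *Casp9* was 17.3 CPM at E18.5 and 15.9 at E14.5, and the libraries overlapped. With all 12 libraries in one fit, the median of all genes moved by -0.17. Replicate 1 at E18.5 was the library with the fewest hepatoblast and most lung transcripts. Without it *Bcl2* was higher by 2.66, *Bcl2l1* by 1.53, and *Bcl2l11* by 0.90. *Bid* and *Bax* then differed by -1.29 and -1.14, and the call of *Casp9* was lost (adjusted p = 0.0565). The *Casp9* call was also lost without replicate 3 at E18.5 or any one of the E14.5 libraries (adjusted p from 0.0565 to 0.0996). *Mcl1* lost its call without E14.5 replicate 1 or 3 (adjusted p = 0.0698 and 0.0646), and *Casp8* without E18.5 replicate 3 (adjusted p = 0.0529) or with all 12 libraries in one fit (adjusted p = 0.0848).

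**Figure D2:**
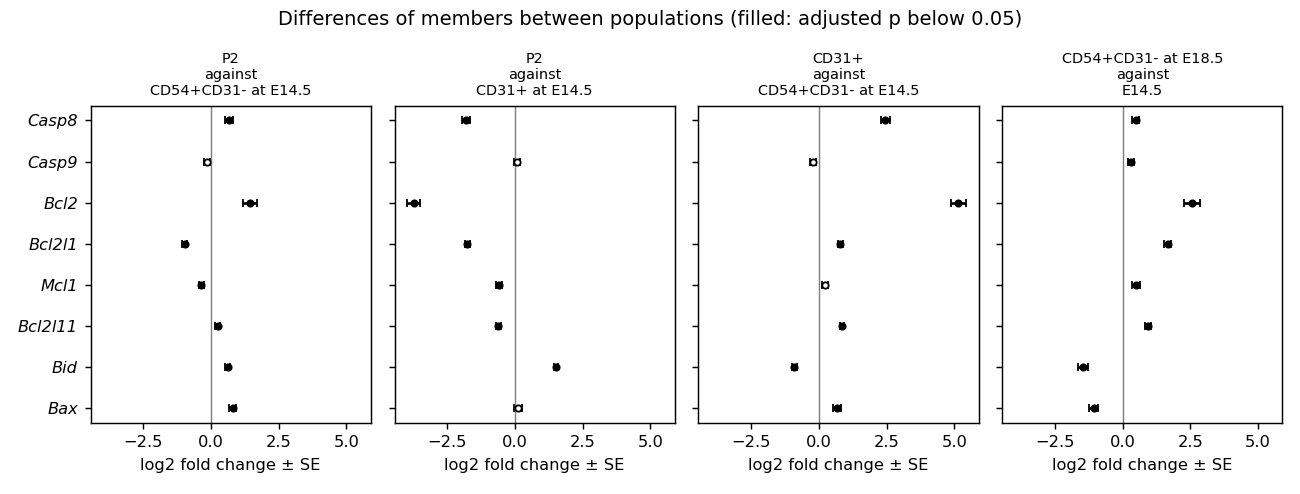
Log2 fold change (x axis) of the 8 members tested (y axis) in the 4 comparisons, first population against second, with the standard error as bars. Filled points passed an adjusted p of 0.05 and open points did not; *Bcl2* spans the widest range, from -3.73 to 5.16.

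Levels of different genes were compared per kilobase of exon. Of the protective members *Mcl1* was the most abundant in each population, at 33.7 CPM per kilobase in P2 cells, 42.5 in CD54+CD31- cells at E14.5, 50.4 in CD31+ cells, and 52.8 at E18.5. *Bcl2l1* followed with 4.21, 8.12, 14.1, and 22.6 CPM per kilobase in the same order, and *Bcl2* had 0.601, 0.218, 7.89, and 1.14.

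The share of each in the summed length-scaled level of the 3 protective members does not depend on how libraries are scaled, but does depend on the exon lengths used. *Mcl1* made up 88.8, 86.4, and 87.3% in P2 cells (87.5 ± 1.17%, n = 3), 83.5 ± 1.07% in CD54+CD31- cells at E14.5, 69.5 ± 3.60% in CD31+ cells, and 68.9 ± 0.974% at E18.5. *Bcl2l1* made up 9.64, 11.9, and 11.2% in P2 cells (10.9 ± 1.17%, n = 3), 16.05 ± 1.06% in CD54+CD31- cells at E14.5, 19.5 ± 1.12% in CD31+ cells, and 29.5 ± 0.544% at E18.5. The *Bcl2* share was 14.2, 9.17, and 9.55% in CD31+ cells (10.97 ± 2.79%, n = 3), against 1.56 ± 0.106% in P2 cells, 0.426 ± 0.156% in CD54+CD31- cells at E14.5, and 1.53 ± 0.439% at E18.5. In each of the 4 comparisons, these length-scaled shares did not overlap between groups for any of the genes. On counts without length scaling, the *Bcl2l1* shares of CD31+ cells (20.9 ± 0.912%) and CD54+CD31- cells at E14.5 (20.3 ± 1.28%) overlapped (exact permutation p = 0.5, n = 3 each). On that scale the *Bcl2* share in CD31+ cells was 23.4 ± 4.95%. The two-sided exact permutation test gave p = 0.1 in all 12 tests of length-scaled shares, which is the smallest that 3 against 3 libraries allow (adjusted p = 0.1), so none could reach 0.05.

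**Figure D3:**
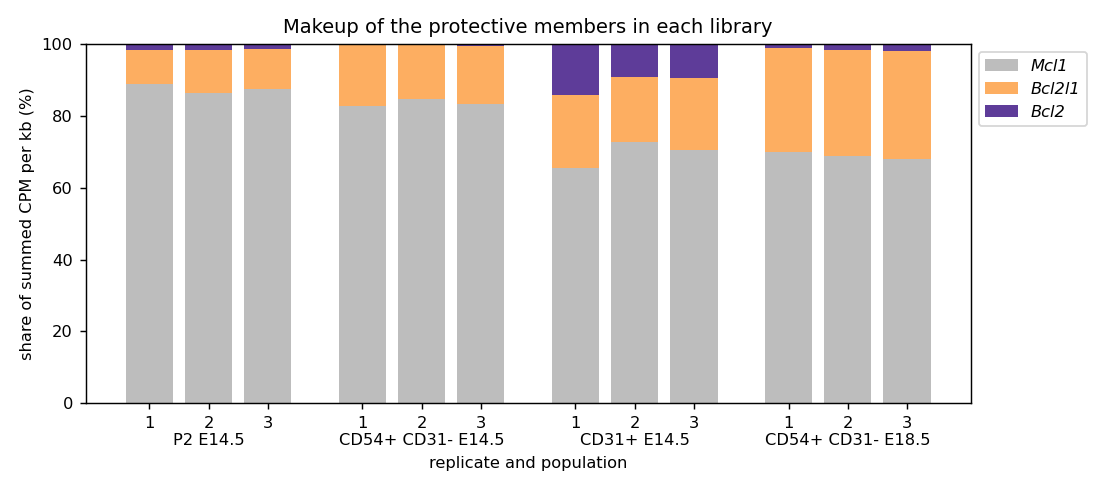
Share in percent (y axis, from 0 to 100) of *Mcl1*, *Bcl2l1*, and *Bcl2* in their summed CPM per kilobase in each of the 12 libraries (x axis). *Mcl1* fills the largest part of every bar, *Bcl2* is widest in the CD31+ libraries, and *Bcl2l1* is widest at E18.5.

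The genes whose pattern over the 12 libraries was most like that of the 3 widest-ranging members were found by the root mean square difference of log2(CPM + 1) values centered on each gene's mean. For *Bcl2* these were *Prickle1* (0.312), *Cables1* (0.381), and *Nfatc1* (0.386). For *Casp8* they were *Pitpna* (0.178), *Rasa3* (0.180), and *Lyn* (0.199). For *Bcl2l1* they were *Vwa5a* (0.158), *Ube2h* (0.159), and *Foxp1* (0.169). The points share the libraries and their scaling.

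A wider list of 46 cell death genes was followed in the same fits, of which 36 were tested at E14.5 and 38 between the ages. In P2 cells 14 were higher and 12 lower than in CD54+CD31- cells (median log2 fold change -0.045 beside -0.011 over all genes), where 70.0% of all genes were called. Against CD31+ cells, 10 were higher and 21 lower in P2 cells (median -0.95 beside -0.13), where 73.7% of all genes were called. In CD31+ cells 18 were higher and 6 lower than in CD54+CD31- cells of the same age (median 0.46 beside -0.031), where 65.6% of all genes were called. At E18.5 13 were higher and 11 lower than at E14.5 (median 0.10 beside 0.033), where 69.4% of all genes were called. Apart from P2 against CD31+ cells, the shares of the list called in either direction lie near or below those of all genes. That reading does not cover the split by direction. Of all genes, 31.7% were higher and 34.0% lower in CD31+ than in CD54+CD31- cells, beside 18 and 6 of the 36 listed genes. In P2 against CD31+ cells, 34.3% of all genes were higher and 39.4% lower, beside 10 and 21 of 36.

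Of the 4 genes of the apoptosome and mitochondrial release, *Htra2* and *Diablo* were higher in P2 cells than in CD31+ cells and *Apaf1*, the scaffold of caspase 9, was lower (log2 fold change -1.43, adjusted p = 8.52e-07). *Cycs*, which encodes cytochrome c, had a log2 fold change of 0.05 (adjusted p = 0.883). *Htra2*, a mitochondrial protease released with cytochrome c, was 54.2 ± 2.54 CPM in P2 cells, 13.7 ± 1.39 in CD54+CD31- cells, and 10.42 ± 1.00 in CD31+ cells (log2 fold changes 1.96 and 2.37, adjusted p = 8.23e-08 and 5.65e-08). *Diablo*, which counters inhibitors of apoptosis, was 35.4 ± 3.34 CPM in P2 cells, against 10.38 ± 1.86 in CD31+ cells (log2 fold change 1.76, adjusted p = 7.91e-06). *Ripk3*, a kinase of necroptosis, was 27.4 ± 1.59 CPM in P2 cells and 4.66 ± 0.748 in CD54+CD31- cells (log2 fold change 2.54, adjusted p = 3.82e-08), and 35.2 ± 2.43 in CD31+ cells. *Ripk3* is among the genes that the study picked as higher in P2 cells from these libraries, so its rise is not independent of that choice.

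The death receptor genes *Fas* and *Tnfrsf1a* were among the 3 genes named for the largest falls in P2 cells against CD54+CD31- cells. Their direction was therefore set by the rule that named them. *Fas*, the receptor of Fas ligand, had 0.299, 0.520, and 0.462 CPM in P2 cells, 8.97, 9.95, and 11.5 CPM in CD54+CD31- cells at E14.5, and 9.44 ± 1.57 in CD31+ cells. Its log2 fold change was -4.57 (SE 0.24, adjusted p = 5.40e-08) against CD54+CD31- cells. *Tnfrsf1a*, a TNF receptor, had 2.43, 7.33, and 3.33 CPM in P2 cells and 61.9, 61.2, and 62.7 CPM in CD54+CD31- cells (log2 fold change -3.84, SE 0.33, adjusted p = 2.04e-06). Replicate 2, with the highest *Tnfrsf1a* of the P2 libraries, was also the one with the most endothelial marker RNA, and CD31+ cells had 111 ± 7.66 CPM; the part of such RNA in the P2 value was not tested. Of 11 death receptor, ligand, and adaptor genes tested, 2 were higher and 9 lower in P2 cells than in CD31+ cells (median log2 fold change -3.19), where 34.3% of all genes were higher and 39.4% lower. Against CD54+CD31- cells 3 were higher and 4 lower (median -0.25), and 70.0% of all genes were called.

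The inflammatory caspase genes *Casp1* and *Casp4* were lower in P2 cells than in CD31+ cells. *Casp1* had 0.0689, 0, and 0.0193 CPM in P2 cells from 3, 0, and 1 counts, against 0.566, 1.07, and 2.27 CPM in CD54+CD31- cells (adjusted p = 0.000127) and 1.67 ± 0.338 in CD31+ cells (adjusted p = 6.97e-05). *Casp4* had 13.5, 9.02, and 20.9 CPM in CD31+ cells and 0.161, 0.416, and 0.347 CPM in P2 cells (log2 fold change -5.54 for P2 against CD31+ cells, SE 0.55, adjusted p = 6.42e-06). The cytokine gene *Tnf* had 3.77, 3.28, and 9.89 CPM in CD31+ cells and at most 0.229 in P2 cells (adjusted p = 0.000147). Macrophage and granulocyte markers summed to 157 to 590 CPM in CD31+ cells, 87.0 to 198 in CD54+CD31- cells at E14.5, and 7.28 to 10.9 in P2 cells. Their part in the *Tnf*, *Casp1*, and *Casp4* levels of these populations was not tested.

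CD31+ cells also had more of the pore-forming relative *Bok* than CD54+CD31- cells, at 12.4, 10.98, and 9.52 CPM against 0.396, 0.661, and 0.296 (log2 fold change 4.61, SE 0.30, adjusted p = 3.01e-07). *Casp4* and *Tnf* were higher there by 5.34 (SE 0.55, adjusted p = 1.15e-05) and 4.57 (SE 0.79, adjusted p = 0.000507). *Dffa*, the inhibitor of the caspase-activated nuclease, was 19.9 ± 1.36 CPM in CD31+ cells and 46.8 ± 1.10 in CD54+CD31- cells (log2 fold change -1.24, adjusted p = 3.43e-07). Executioner *Casp6* and the survivin gene *Birc5* were also lower in CD31+ cells, with log2 fold changes of -0.99 (adjusted p = 3.13e-05) and -0.55 (adjusted p = 0.00284). Of 8 inhibitors of apoptosis tested, 4 were higher and 2 lower in CD31+ cells, where 65.6% of all genes were called. Of the 4 that were higher, 3 are *Naip* genes, near-identical copies whose reads the counting could split.

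Between the ages, *Birc5*, which is expressed in dividing cells, was 120, 149.8, and 135 CPM at E14.5 and 8.003, 17.9, and 16.3 CPM at E18.5 (log2 fold change -3.08, SE 0.30, adjusted p = 0.000150). *Dffa* and cytochrome c (*Cycs*) were also lower at E18.5, by log2 fold changes of -1.75 (adjusted p = 2.34e-05) and -1.61 (adjusted p = 0.000824). The BH3-only gene *Bmf* rose from 11.8 ± 1.45 to 36.8 ± 10.7 CPM (log2 fold change 1.83, SE 0.23, adjusted p = 0.000457), with 49.1 CPM in replicate 1 and 30.1 and 31.1 CPM in the others. *Casp12* had 1.92, 2.41, and 2.33 CPM at E18.5 and 0.0283, 0.126, and 0.148 CPM at E14.5, the latter from 1, 4, and 6 counts (adjusted p = 0.000170). *Casp4* was 1.22 ± 0.403 CPM at E18.5 and 0.341 ± 0.307 at E14.5 (log2 fold change 1.99, SE 0.63, adjusted p = 0.0266).

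**Figure D4:**
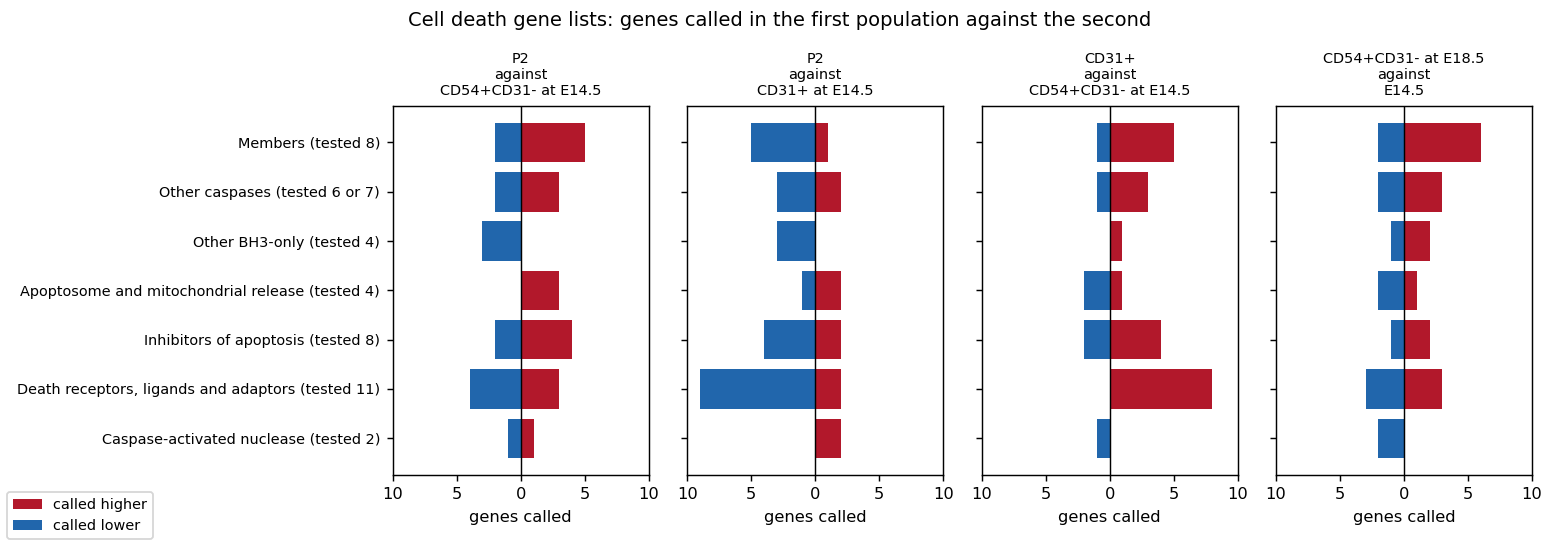
Number of genes (x axis) called higher (to the right of 0) or lower (to the left) in the first population of each comparison, by list (y axis, with the number tested). The death receptor list, with 11 tested, has 9 genes lower in P2 than in CD31+ cells, where 39.4% of all genes were lower. It has 8 higher in CD31+ than in CD54+CD31- cells, where 31.7% of all genes were higher.

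**Figure D5:**
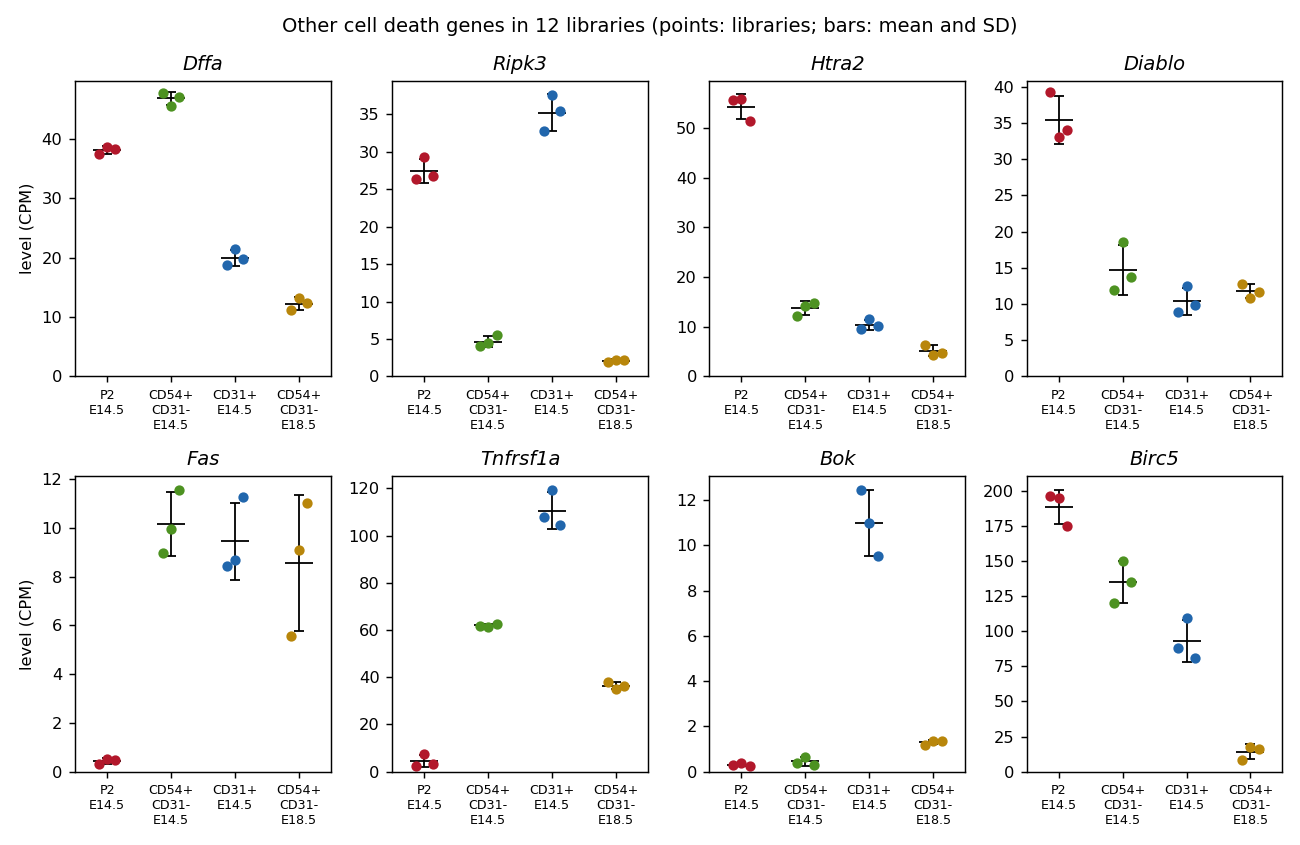
Level in CPM (y axis, from 0) of 8 other cell death genes in the 4 populations (x axis), with points for single libraries and bars for the mean and SD of 3. *Htra2* and *Diablo* stand highest in the P2 libraries, *Fas* and *Tnfrsf1a* lowest, and *Bok* is highest in CD31+ cells.

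Genes of the wider list with too few counts to be tested in any comparison were *Casp14* and *Bcl2a1d*, listed at 0, *Bcl2l2* with 2 counts over 12 libraries, *Fasl* with 18, *Bcl2l10* with 19, *Hrk* with 58, *Naip1* with 70, and *Bcl2a1a* with 73. Of the 4462 exon bases of *Bcl2l2*, 594 are shared with *Gm20521*. The part of shared bases in its low count was not tested, and that count is not read as lack of *Bcl2l2* RNA. *Bcl2a1b* was tested between the ages alone, where it had 33, 21, and 15 counts at E18.5 and 0, 0, and 1 at E14.5 (adjusted p = 0.00268). It has near-identical copies among which the counting could split reads.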

How the data were processed

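RNA-seq libraries were prepared from RNA of the sorted cells with the stranded SMARTer Pico total RNA kit after enzymatic depletion of ribosomal RNA. Per the labels, cutadapt 1.11, STAR 2.5.0a, featureCounts 1.4.6-p3, and R 3.5.1 with DESeq2 were used on GRCm38. The annotation release, the strand setting, and the treatment of reads in overlapping genes are not given in the sources used here. The deposited raw counts per gene were analyzed. A scaled column deposited beside them, treated as a score, served to recover the authors' library factors. Of 38127 gene IDs, 37932 matched GENCODE vM21, from which coordinates and exon lengths were taken, and promoters came from RefSeq (GRCm38.p6).

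Counts were fitted with edgeR 4.0.16 in R 4.3.3 (TMM, filterByExpr, quasi-likelihood test, Benjamini-Hochberg adjustment over all genes), with the 9 E14.5 libraries in one fit (15461 genes) and the 6 CD54+CD31- libraries in another (15863 genes). Levels are CPM on TMM sizes over 12 libraries. The SE is the log2 fold change divided by the root of the F statistic. Scripts were tested on simulated data. The study states independent litters for E14.5. Elsewhere p-values measure the spread between libraries. Deviations from the group mean of same-numbered CD31+ and CD54+CD31- libraries at E14.5 had correlations of 0.334, 0.26, and 0.122. The block changed no member's call there. Libraries of unlike numbers were not compared, so whether the numbers pair the libraries was not tested. Libraries of one group differed beyond sampling noise. Intervals from counts cover counting error only.

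Of the wider list, the 3 genes per direction and comparison with the largest fold change were named, if called, without overlap and at 1 CPM or more in a group. One item that this rule picked is not reported here. Members and lists were chosen with earlier results of these data known. DESeq2 1.42.0, other scalings, filters, the replicate block, other sample sets, and leaving out each library were alternatives. The shares were tested with SciPy 1.17.1.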

Additional observations from a re-analysis of the deposited data

How the results depend on the processing

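Under all alternatives run, the counts of genes, members, and wider-list genes called stayed within 1.5 times the values given, and no share of the protective members changed direction. With one library left out, 5 to 7 members were called in P2 against CD54+CD31- cells, 6 in P2 against CD31+ cells, 6 to 7 in CD31+ against CD54+CD31- cells, and 6 to 8 between the ages. In the first of these comparisons 10220 to 10522 of all genes were called with one library left out, against 10815 with all libraries. The other leave-one-out counts of members have no share of all genes beside them and are not read as results about the members. Of the members' log2 fold changes, 438 kept direction and call, 8 gained a call, 20 lost one, and 6 changed sign. The changes of sign were *Bcl2l11* in P2 against CD54+CD31- cells (-0.013 with the authors' library factors), *Casp9* in P2 against CD31+ cells (-0.30 with those factors, -0.074 with at least 10 counts in every library, and from -0.0055 without CD31+ replicate 1 to 0.20 without CD31+ replicate 2), and *Bax* in the same comparison (-0.26 and -0.026 with the first and second of these). The cause was not tested. The authors' factors moved the median of all genes by 0.11 in CD31+ against CD54+CD31- cells and 0.23 between the ages, and one fit of all 12 libraries moved the latter by -0.17. With the replicate block, 10910, 11460, 10326, and 10329 genes were called in the 4 comparisons, and the calls of *Casp9* and *Mcl1* between the ages were lost (adjusted p = 0.0663 and 0.0572), leaving 6 members called. The block changed no other member's call. Outside CD31+ against CD54+CD31- cells at E14.5 the correlations of deviations of same-numbered libraries ranged from -0.0199 to 0.336. The highest was that of replicate 3 in P2 against CD31+ cells. The share of *Bak1* beside *Bax* was not run, since *Bak1* had no counts. The 3 libraries per population, and the low counts of *Bcl2* in CD54+CD31- cells at E14.5, limit the precision.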
